A study of Obba rivulosa with 6 samples.

Results

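The 85 gene models described here climbed at both steps of a long culture of the white-rot fungus Obba rivulosa on spruce wood, from week 2 to week 4 and again from week 4 to week 8. They were taken from the 12424 gene models listed in at least 1 of the 6 libraries. A model was a member when, in FPKM + 1, its lower week 4 library was at least 1.5 times its higher week 2 library and its lower week 8 library at least 1.5 times its higher week 4 library, and when it had 10 FPKM or more in both week 8 libraries. FPKM is a read count scaled by the length of the gene model and by the library total. The members were thus chosen on the very levels given below, so these levels and their fold changes are a description and carry no test. The files name no gene product, so no role can be given to any member, and models are called by the JGI protein ID inside their identifier.

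White-rot fungi are basidiomycetes that open up wood by oxidising lignin with secreted enzymes while hydrolysing cellulose and hemicellulose, and they take up the sugars released. Obba rivulosa colonises conifer wood and is known for removing lignin selectively. Wood is poor in nitrogen, and mycelium that stays on it for long is known to recycle its own older hyphae.

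The strain was the monokaryon 3 A-2, for which the labels also list a dikaryotic strain, FBCC1032. It was grown in liquid first, homogenised, and then kept on Norway spruce sticks over water agar, still and in the dark. All libraries share this single strain and substrate and differ in the length of culture: weeks 2, 4 and 8, with 2 libraries each. The series followed the fungus through prolonged growth on wood, with an interest in carbohydrate-active enzymes and central carbon metabolism. The labels do not say whether the libraries of a week came from separate cultures, so the spread between them may be partly technical. RNA came from whole colonised sticks, in which a larger share of cells expressing a model cannot be told apart from more RNA per cell.

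The libraries held 4908235 to 5154075 expected counts each. FPKM values are scaled by the library total, and on that scale the bulk of the transcriptome stood higher at week 8. The median log2 change of the 10889 tested models from week 2 to week 8 was 0.37 with total counts only, and 0.046 with TMM, a scaling that holds most models level between libraries. From week 4 to week 8 it was 0.31 and 0.013. Changes below are on the FPKM scale unless TMM is named.

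Rising at both steps was uncommon. The first step was met by 1547 models and the second by 1989. Both were met by 87, of which 85 had 10 FPKM or more in both week 8 libraries, out of 8316 models that reached that level. The mirror-image rule, falling at both steps from 10 FPKM or more in both week 2 libraries, was met by 66 models. This order depended on the scaling: with FPKM rescaled by TMM factors 63 models rose and 118 fell, and with size factors (RLE) 61 rose and 126 fell. Of the 85 members, 59 met the rule with TMM factors and 57 with size factors.

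In their median, the members began among the weakly expressed models and ended in the upper part of the transcriptome. Single members departed from this. In the week 2 libraries 39 and 38 members already had 10 FPKM or more, and model 802630 ranked 334 by its week 2 mean. Model 836141 still ranked 8197 by its week 8 mean. Their median level was 8.29 and 8.76 FPKM in the libraries of week 2, 26.7 and 25.3 FPKM in those of week 4, and 79.3 and 75.5 FPKM in those of week 8. The median over all listed models moved far less, from 18.4 and 18.3 FPKM in week 2 to 19.2 and 18.1 in week 4 and 23.7 and 23.9 in week 8. The median rank of a member by FPKM, counted from the most abundant model, was 8305 and 8189 in week 2, 5035 and 5039 in week 4, and 1975 and 2186 in week 8. At week 2 no member was among the 100 most abundant models of either library. At week 4 there were 2 in each library, and at week 8 there were 6 in replicate 1 and 5 in replicate 2.

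Together the members took up a growing part of the messenger RNA. Their part of all reads was 0.248% ± 0.010 in the week 2 libraries, 0.684% ± 0.003 in those of week 4 and 2.36% ± 0.06 in those of week 8 (SD, n = 2). The weeks did not overlap, a direction that the choice of members fixes. A few members carried much of the total: the 5 with most reads held 0.109% and 0.0956% of the reads at week 2 and 1.08% and 1.16% at week 8. The 66 models of the mirror-image rule moved on a larger scale, from 10.4% and 11.4% of the reads (week 2) through 2.68% and 2.08% (week 4) to 0.748% and 0.773% (week 8). They had been abundant at the start, with a median of 445 and 513 FPKM in the week 2 libraries.

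**Figure D1:**
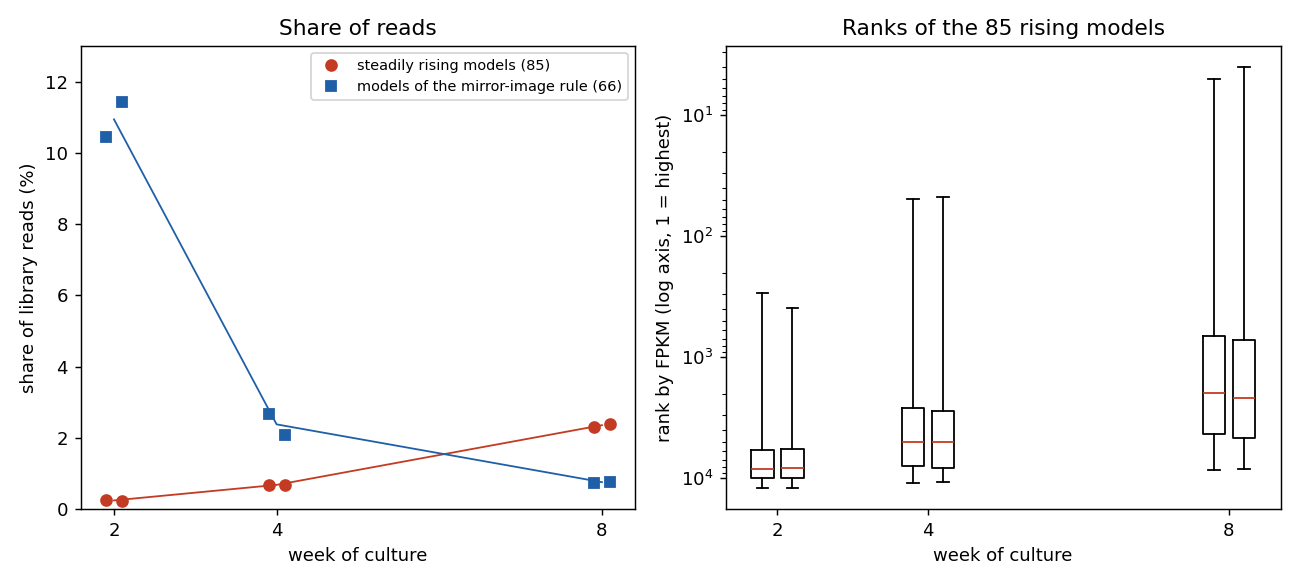
Left, share of library reads (%) against week of culture for the 85 steadily rising models and the 66 models of the mirror-image rule, with 1 point per library and a line through the week means. Right, rank by FPKM of the 85 rising models in each library (log axis, 1 is the most abundant; boxes are quartiles, red lines medians, whiskers the extremes), where the median moved from 8305 and 8189 at week 2 to 1975 and 2186 at week 8.

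Members differed widely in the level from which they set out. At week 2, 3 of them had a mean below 1 FPKM, 43 stood between 1 and 10 FPKM, 36 between 10 and 100 FPKM, and 3 at 100 FPKM or more. The final level followed the class of the starting level in its median, with 45.0 FPKM at week 8 for those that began between 1 and 10 and 153 for those that began between 10 and 100. Part of this order is set by the rule, which asks every member to rise from its own starting level. The ratio of the lower week 8 value to the higher week 2 value, in FPKM + 1, had a median of 6.41 and ran from 2.78 to 102. It was 4 or more for 63 members, 10 or more for 24, and 30 or more for 5 (models 890905, 791534, 857108, 820226 and 837722).

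**Figure D2:**
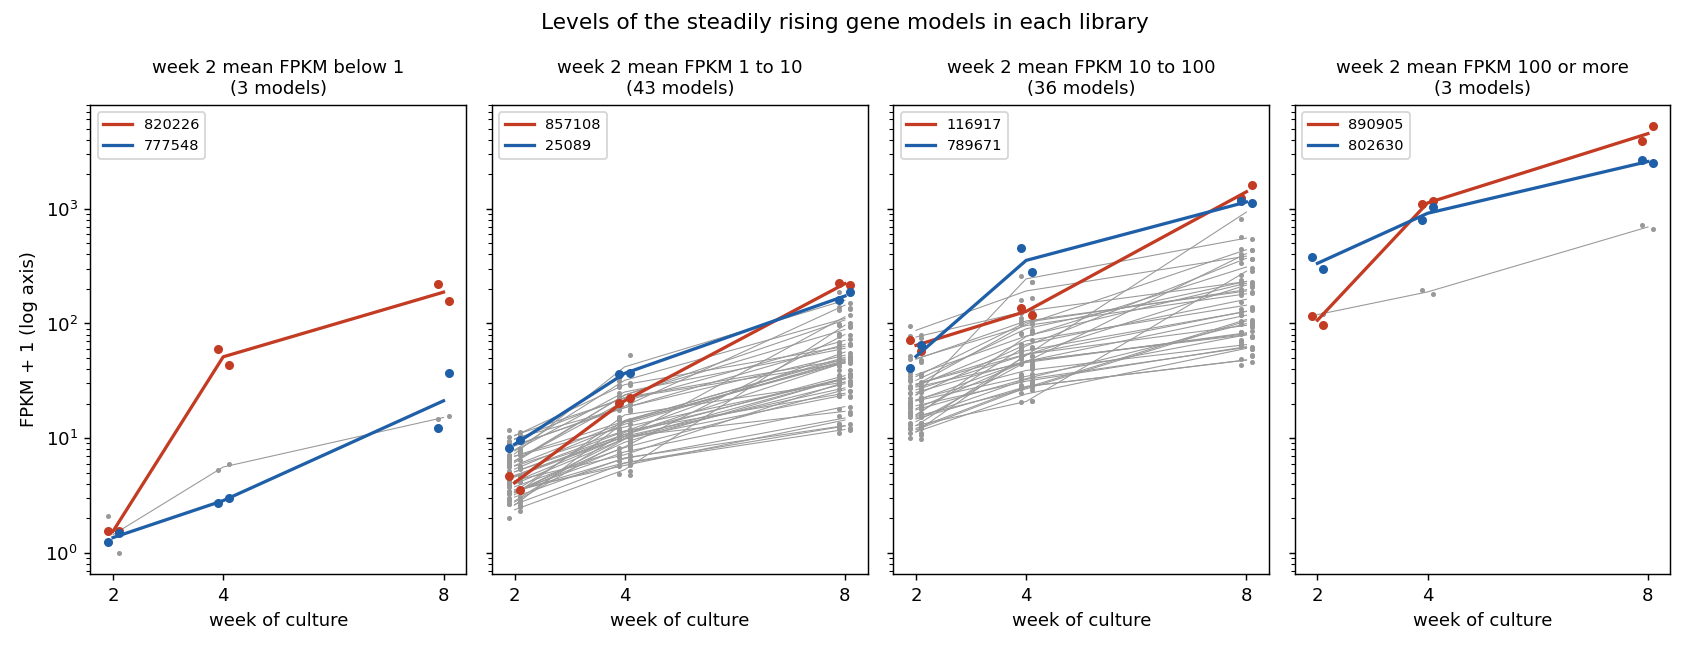
FPKM + 1 (log axis) against week of culture for each of the 85 models, in 4 panels by mean week 2 level, holding 3, 43, 36 and 3 models. Points are single libraries, set slightly apart in each week, lines join the geometric means of the weeks, and the members with the highest week 8 mean of each class are coloured. Every line rises at both steps, as the rule requires.

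Among the members already strong at week 2, the most abundant at the end was jgi|Obbri1|890905|estExt_Genemark1.C_2160007, a short model of 514 bases. It had 116 and 96.6 FPKM in week 2, 1088 and 1160.3 in week 4, and 3875 and 5259 in week 8. The weeks are far apart, and the week 8 libraries differ by more than those of earlier weeks. By its mean level it climbed from rank 1271 among all models to rank 48 at week 4 and rank 4 at week 8. Its TMM-scaled log2 fold change was 3.38 ± 0.23 (SE) over the first interval and 1.72 ± 0.21 over the second.

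Model jgi|Obbri1|802630|fgenesh1_pg.37_#_16 followed in abundance, with 375 and 296 FPKM in week 2, 802 and 1038 in week 4, and 2676 and 2483 in week 8. It went from rank 334 through 68 to 12, by similar steps in each interval. It is a shared-read model, one whose expected count was not whole in at least 1 library because reads were divided between similar gene models, so its level is uncertain. The remaining member of this class, jgi|Obbri1|36879|CE36702_4157, was chosen after its values were seen, to complete the class, and had 117 and 120 FPKM in week 2, 195 and 181 in week 4, and 727 and 660.3 in week 8. Most of its rise came after week 4.

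In the class that began between 10 and 100 FPKM, the highest final level was that of jgi|Obbri1|116917|CE116740_8911. It had 70.9 and 56.7 FPKM in week 2, 136 and 118 in week 4, and 1234 and 1601 in week 8. The first step was modest and the second large, with TMM-scaled log2 fold changes of 0.96 ± 0.21 (SE) and 3.19 ± 0.22. Model jgi|Obbri1|789671|fgenesh1_kg.17_#_14_#_Locus1302v1rpkm105.02 reached a like level by the opposite course. It had 39.8 and 64.1 FPKM in week 2, 451 and 277 in week 4, and 1169 and 1121 in week 8, so that its libraries differed at weeks 2 and 4 and were close at week 8. Its TMM-scaled log2 fold changes were 2.77 ± 0.28 (SE) and 1.37 ± 0.26.

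Model 791534 belongs to the same class and had one of the largest overall rises. It had 15.7 and 8.89 FPKM in week 2, 58.1 and 46.1 in week 4, and 816 and 1072 in week 8. In rank it moved from 7400 to 2741 and then to 57. The second step was the larger one, a ratio of 13.8 in FPKM + 1 against 2.82 for the first.

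Of the 43 members that began between 1 and 10 FPKM, jgi|Obbri1|857108|MIX16458_110_65 ended highest. It had 3.72 and 2.54 FPKM in week 2, 19.2 and 21.3 in week 4, and 225 and 218 in week 8. Its libraries agreed closely at week 8, and both steps were large, with ratios of 4.29 and 9.82 in FPKM + 1. Model jgi|Obbri1|25089|CE24912_554 had 7.14 and 8.58 FPKM in week 2, 35.5 and 36.0 in week 4, and 159 and 188 in week 8. It rose by nearly equal ratios, 3.81 and 4.32, and is a shared-read model. Only 4 members rose at least 3-fold at each step: 857108, 25089, 890905 and jgi|Obbri1|807312|fgenesh1_pg.224_#_12, the last picked out after its values were seen. Model 807312 had 17.9 and 12.7 FPKM in week 2, 64.8 and 60.6 in week 4, and 373 and 365 in week 8.

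The 3 members that were almost silent at week 2 rest on very few reads there. Model jgi|Obbri1|820226|estExt_fgenesh1_pm.C_1160017 had 0.55 and 0.54 FPKM in week 2, 59.2 and 42.6 in week 4, and 221 and 157 in week 8. It counted 6 reads in both week 2 libraries together and 2120 at week 8, a ratio of 348 on library totals with an exact 95% counting interval from 160 to 950. Its first step was the largest of all members, a ratio of 28.1 in FPKM + 1.

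Model jgi|Obbri1|777548|estExt_Genewise1Plus.C_810059 also counted 6 reads at week 2. It had 0.25 and 0.48 FPKM in week 2, 1.72 and 2.00 in week 4, and 11.2 and 35.7 in week 8. The week 8 libraries differ by a ratio of 3.01 in FPKM + 1, so the size of its late rise is loosely known. Model jgi|Obbri1|808285|fgenesh1_pg.325_#_3, a model of 399 bases chosen after its values were seen, to complete this class, had 1.08 FPKM in one week 2 library and no row in the other. It then had 4.31 and 4.92 FPKM at week 4 and 13.7 and 14.6 at week 8. With 2 reads at week 2 and 54 at week 8, the ratio was 26.6, with a counting interval from 7.02 to 225. Over all members, 6 and 9 had fewer than 10 counts in the libraries of week 2, and none did at week 8. These intervals cover counting error only.

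The timing of the rise varied between members. On log2(FPKM + 1) the median rise was 1.20 over the first interval of 2 weeks and 1.53 over the second of 4 weeks, which is 0.60 and 0.38 per week. The rise per week was larger in the first interval for 74 of 85 members, for 77 by TMM-scaled fold changes and for 75 by fold changes on total counts. The rule favours this order, since it asks the same 1.5-fold of 2 weeks and of 4, so nothing is read from it or from the size of the shares that follow. The median member made 47.6% of its log2 rise in FPKM + 1 between weeks 2 and 4. This share ran from 15.5% to 74.0%, and was above 50% in 37 members. Of the fitted log2 fold changes, without the offset, the median share was 55.1% with TMM, 55.8% with size factors (RLE), 52.5% with upper quartile scaling and 49.4% with total counts only, so whether it passed 50% depended on the scaling. Adding 1 to FPKM shortens the early rise of the faintest models.

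**Figure D3:**
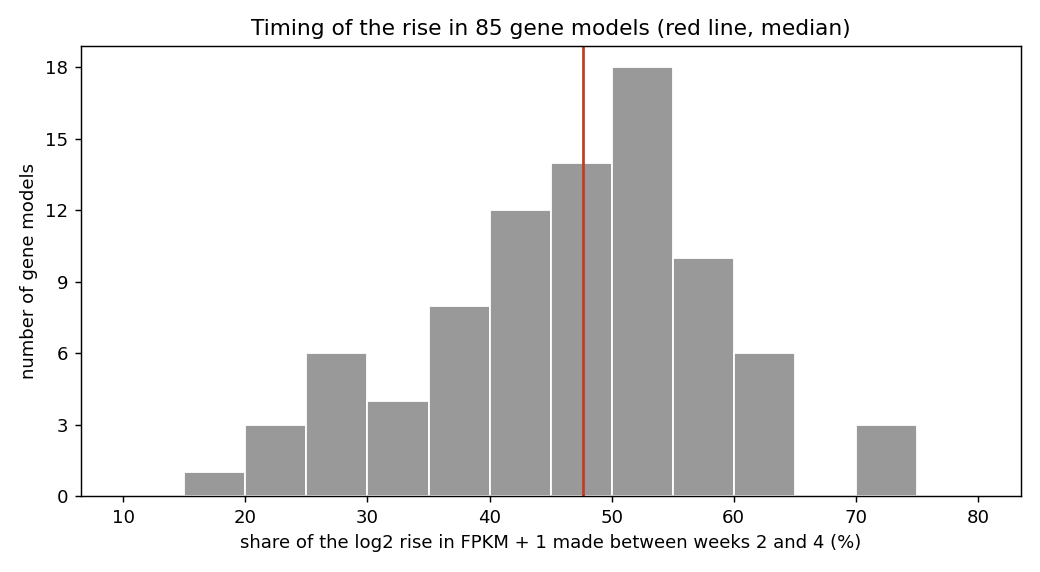
Number of gene models against the share (%) of the log2 rise in FPKM + 1 that was made between weeks 2 and 4, for the 85 members. The red line marks the median of 47.6%, with members spread from 15.5% to 74.0%.

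The largest share of the rise in FPKM + 1 made by week 4 was that of jgi|Obbri1|845942|MIX5292_113610_38. It had 23.6 and 22.1 FPKM in week 2, 258 and 230.3 in week 4, and 565 and 543 in week 8. Its TMM-scaled log2 fold changes were 3.39 ± 0.18 (SE) and 0.89 ± 0.16, and 74.0% of its log2 rise in FPKM + 1 was made by week 4. Model 820226 had 73.0%, and by TMM-scaled fold changes, without the offset, the order of these models was the reverse, with 80.2% for 820226 and 79.2% for 845942.

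The latest risers made little of their climb by week 4. Model jgi|Obbri1|790670|fgenesh1_kg.29_#_18_#_Locus7928v3rpkm2.15 had 11.3 and 12.5 FPKM in week 2, 19.7 and 20.01 in week 4, and 265 and 306 in week 8. Its first step was barely inside the rule, a ratio of 1.53, and its second was 12.6. Model jgi|Obbri1|837722|gm1.7702_g had 1.01 and 1.81 FPKM in week 2, 3.88 and 4.79 in week 4, and 98.5 and 93.2 in week 8. It made the largest second step of all members, a ratio of 16.3, and 21.7% of its log2 rise in FPKM + 1 came in the first interval. It counted 17 reads at week 2, so its early level is coarse. By TMM-scaled fold changes, without the offset, its share was 27.6%, above the 23.1% of model 116917. The share of 790670 was 16.6% on that scale.

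The fit over all tested models was made on counts rather than FPKM, yet on the same libraries, so its calls describe the members and add no separate evidence. By edgeR's quasi-likelihood test with TMM scaling and Benjamini-Hochberg adjustment over 10889 models, 81 of 85 members were called higher at week 4 than at week 2, where 19.5% of all tested models were. From week 4 to week 8, 80 members were called higher, against 18% of all models. Between weeks 2 and 8 all 85 were, against 13.2%. Called changes of at least 2-fold numbered 63, 55 and 85 members in these comparisons, against 11.3%, 6.26% and 7.75% of all models. The median TMM-scaled log2 fold change of the members was 1.39, 1.27 and 2.74 in these comparisons, and that of all tested models -0.0014, 0.013 and 0.046. With total counts only, the members' medians were 1.43, 1.57 and 3.07. All members passed the filter on low counts, which each could do through its week 8 level.

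**Figure D4:**
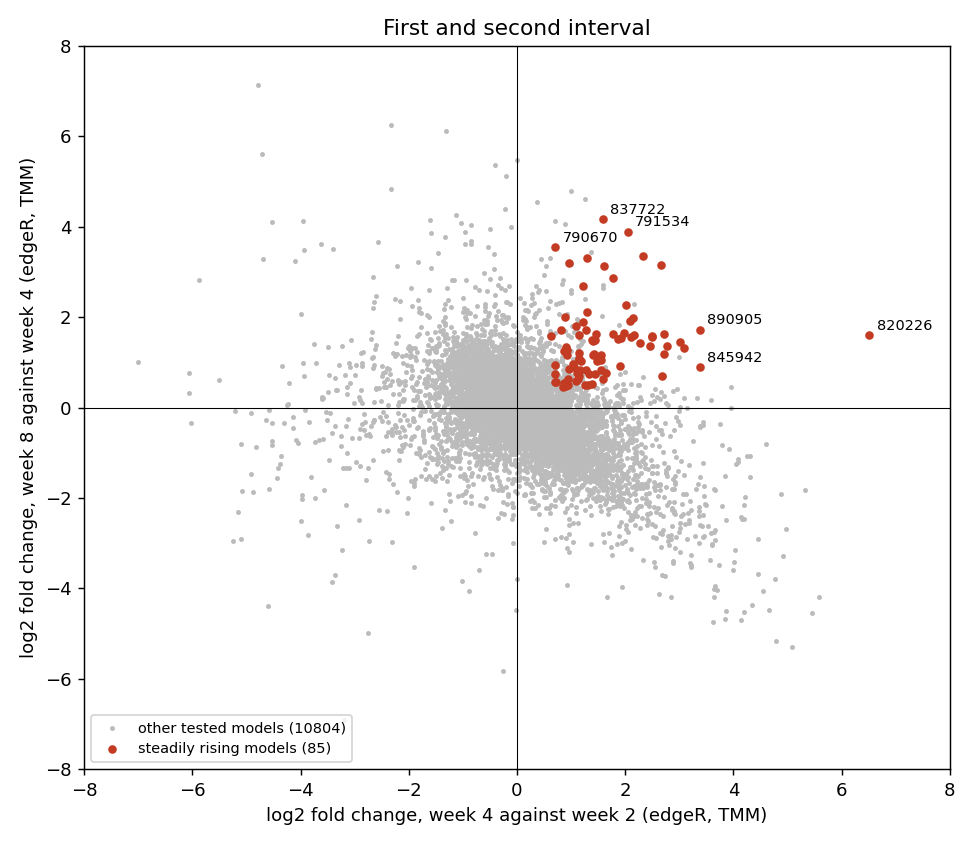
TMM-scaled log2 fold change from week 4 to week 8 against that from week 2 to week 4, from edgeR, for the 85 members (red) and the 10804 other tested models (grey), with 3 models beyond the axes not drawn. The members lie in the upper right, where both changes are upward, with 820226 far to the right and 837722 at the top.

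Both intervals were called higher for 77 members, out of 125 models so called, which was 1.15% of all tested models. The 48 others among those 125 had a step under 1.5-fold between the nearest libraries. A bound of 2-fold in each interval left 53 models, 0.487% of all tested, and 44 of these were members. Both intervals use the same week 4 libraries. Model jgi|Obbri1|490434|CE490257_78 was called in neither, although it was called between weeks 2 and 8. The first interval was missed by 758159, 777548 and 790597, and the second by 782096, 790592, 795352 and 796615. These models were singled out by their calls.

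At the edge of the rule the members hardly differ from their neighbours outside it. Just inside stood jgi|Obbri1|824123|estExt_fgenesh1_pg.C_230016, with 5.61 and 6.29 FPKM in week 2, 13.3 and 9.96 in week 4, and 30.4 and 32.9 in week 8. Its first step had a ratio of 1.503. With it stood jgi|Obbri1|836141|gm1.6121_g, a shared-read model, with a ratio of 1.506 and 12.3 and 11.3 FPKM at week 8. Just outside stood jgi|Obbri1|490175|CE489998_1389, with 19.6 and 19.0 FPKM in week 2, 33.1 and 29.9 in week 4, and 58.4 and 77.0 in week 8, a ratio of 1.498. Model jgi|Obbri1|857780|MIX17130_88_59 also missed by its first step, 1.495, and went on to 90.6 and 131 FPKM at week 8. In all, 22 of 85 members had a smaller step under 1.6, and 27 had both steps of at least 2-fold.

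The libraries of a week can be set against each other for the members. The median absolute difference between them, in log2(FPKM + 1), was 0.22, 0.24 and 0.14 for weeks 2, 4 and 8. For the 8316 models with 10 FPKM or more in both week 8 libraries it was 0.11, 0.28 and 0.18. The members were fainter than these models at week 2, and a rule that asks the nearest libraries to differ favours models with close replicates. The libraries differed by more than 1.5-fold for 8, 17 and 3 of the 85 members in weeks 2, 4 and 8. The 3 members at week 8 were 777548, 758159 and 790597. The libraries did so for 133, 1192 and 473 of the 8316 models with 10 FPKM or more in both week 8 libraries. That was 1.6%, 14.3% and 5.69% of these models, against 9.41% of the members in week 2 and 3.53% in week 8. In week 4 the 17 of 85 members were also a larger share than the 14.3% of these models. By this measure the members had the closer libraries in week 8 only.

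**Figure D5:**
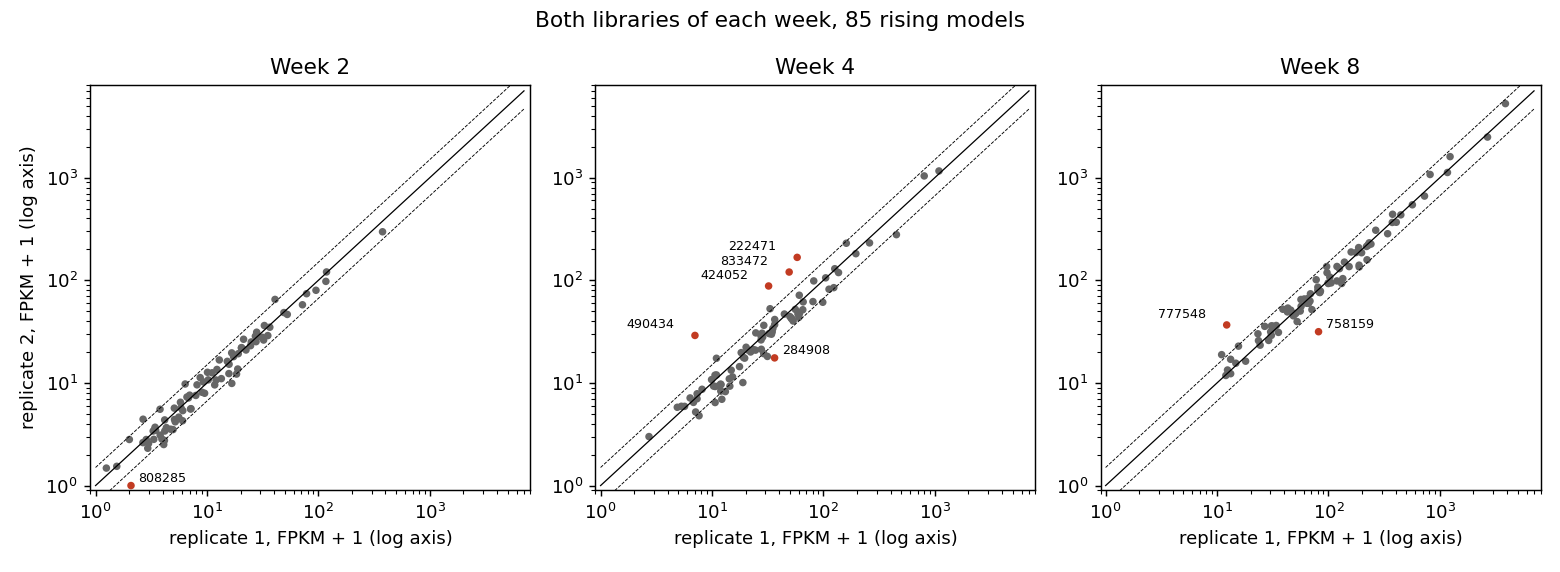
FPKM + 1 in replicate 2 against replicate 1 (log axes) at weeks 2, 4 and 8, 1 point per member. The solid line marks equal values and the dashed lines a 1.5-fold difference, and the members that differ by more than 2-fold are red and labelled: 1, 5 and 2 members in weeks 2, 4 and 8.

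Model jgi|Obbri1|758159|estExt_Genewise1.C_1200062 had 80.5 and 30.6 FPKM at week 8, after 5.82 and 6.14 at week 2 and 13.9 and 12.3 at week 4. Its replicate 1 was the high library at week 8, whereas for 777548 it was replicate 2. The disagreement at the end of the culture thus ran in opposite directions in these models.

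At week 4, 4 members were more than 2-fold higher in replicate 2, and they were picked out after their values were seen. Model jgi|Obbri1|222471|CE222294_2011 had 57.1 and 166 FPKM at week 4, between 31.2 and 25.2 at week 2 and 445 and 433 at week 8. Model jgi|Obbri1|833472|gm1.3452_g had 48.3 and 119 FPKM, and jgi|Obbri1|424052|CE423875_101 had 31.2 and 87.0. Model 490434 had 6.03 and 28.0 FPKM at week 4, after 1.67 and 3.43 at week 2 and before 49.9 and 46.5 at week 8. In all 4 the week 8 libraries lay close together while those of week 4 did not. Model jgi|Obbri1|284908|CE284731_1133 was more than 2-fold lower in replicate 2, with 35.5 and 16.5 FPKM. Over all members 33 of 85 were higher in replicate 2 of week 4, and 38.6% of the 8316 models were.

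Leaving out a library loosens the rule, and the week 4 libraries enter both of its steps. Without replicate 1 of week 4 the rule was met by 136 models, and without replicate 2 by 147, where leaving out a library of another week gave 95 to 106. Each of these sets holds the 85 members by construction. The week 4 libraries also differed more from each other than those of the other weeks, over the 8316 models described above. The source of the larger numbers was not tested. The rule was also applied to 1 library per week. In the replicate 1 libraries 205 models met it. Of these, 112 (54.6%) also met it in the replicate 2 libraries, where 1.59% of all models did. The 112 include all 85 members, which meet the rule in both sets by construction, so the overlap is no separate evidence on them. Picked in replicate 2 there were 198, of which 56.6% met it in replicate 1, against 1.65% of all models. Of the 205 models, 178 (86.8%) were higher at both steps in the replicate 2 libraries, against 22.3% of the models with 10 FPKM or more in both week 8 libraries. Of the 198 picked in replicate 2, 181 (91.4%) were higher at both steps in replicate 1, against 28.2%. The 178 and the 181 include the 85 members by construction. The picked models also needed 10 FPKM in only 1 week 8 library, unlike the models set beside them. These shares are thus no separate evidence on the members either. Libraries with the same number are not known to come from the same culture, and those of a week are not known to come from separate ones.

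The rule used neither the length nor the naming of a model, nor whether its reads were shared. The members' length had a median of 1341 bases, with quartiles of 968 and 1707, against 1434 bases, 965 and 2036, for the 8316 models that reached the same level at week 8. The longest member had 3540 bases, and the longest of those models 13700. Shared-read models made up 15 of the 85 members (17.6%), against 9.55% of those 8316 models and 11.8% of all listed models. These differences were not tested. Without shared-read members the remaining 70 held 0.167%, 0.476% and 1.83% of the reads at weeks 2, 4 and 8, a direction that the rule fixes for them too.

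The members came from most of the gene prediction sources named in the identifiers. There were 19 of 2849 models with names beginning fgenesh1_kg, 18 of 2771 beginning CE, 10 of 1325 beginning e_gw1 and 10 of 1021 beginning gm1. The names of 54 members hold a number that in JGI's naming stands for the scaffold, which was not checked against a genome here. They spread over 48 such numbers out of 514, and 11 members shared theirs with another member. Scaffold 28 held 3 of them, 790592, 790597 and 802186, among 50 listed models. Scaffold 224 held 807312 and jgi|Obbri1|739123|e_gw1.224.32.1 among 16 models. The mean level of model 739123 was 7.57, 18.0 and 144 FPKM in weeks 2, 4 and 8, so both members on this scaffold made the larger step after week 4. Scaffolds 117, 165 and 200 held 2 members each. How close the members lie on a scaffold is not known from the names.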

How the data were processed

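RNA of Obba rivulosa on spruce was sequenced after 2, 4 and 8 weeks of culture, with 2 libraries each. Per the file headers, the deposited tables hold a length, an expected count and an FPKM value per gene model. The authors' expected counts are estimates without normalization. Their deposited FPKM values are scaled by model length and library total, and rounded. The submitters' processing notes name BWA, Bowtie and RSEM, with no version or role, and the genome build is not given in the sources used here. A model with no row in a file was taken as 0.

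The members and lists were chosen with earlier results of these data known. The rule for named models takes at most 2 per facet: the highest at week 8, overall and in each class of week 2 level, the largest rise, the earliest and latest rise, those nearest the bound, and the widest spread at week 8. Models 36879 and 808285, which complete their classes of week 2 level, and those said to be singled out, were named after their values were seen. Product lists planned for wood decay and metabolism could not be filled, since no product names were given.

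Expected counts were rounded and fitted with edgeR 4.0.16 in R 4.3.3 (quasi-likelihood, robust, TMM, filterByExpr with its minimum count of 10, all 6 libraries in one fit with a mean per week). A model was called at an adjusted p below 0.05. Standard errors derive from the F statistic. The procedure was tested on simulated data for week 4 against week 2 only. Far fewer models were changed in them than were called here, so that test does not gauge the calls given above. Alternatives used DESeq2 1.42.0, limma 3.58.1, other scalings, other bounds of the rule and each library left out. A count was taken as whole within 0.005. Library totals between 4908235 and 5154075 counts leave models with few reads at week 2 imprecise.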

Additional observations from a re-analysis of the deposited data

How the results depend on the processing

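The number of models meeting the rule was 85. It became 190 with a looser bound on each step, 27 with a 2-fold bound, 36 with 10 added to FPKM in place of 1, and 191 with means of the weeks. It was 205 with replicate 1 libraries only and 198 with replicate 2 libraries only, and leaving out 1 library gave 95 to 147. These changes follow from the looser or stricter conditions. The other rule alternatives gave 61 to 102 models, of which 57 to 85 were members. Member numbers called higher in the 3 comparisons stayed within 1.5 times the reported ones where both libraries of each compared week were kept. This bound is wide for members all chosen to rise, whose number cannot pass 85. Each library was also left out in turn. The members' median log2 fold change then ran from 1.30 to 1.41 for week 4 against week 2. It ran from 1.22 to 1.29 for week 8 against week 4, and from 2.69 to 2.84 for week 8 against week 2. With the replicate number as a block, 81, 76 and 85 members were called higher in these comparisons, against 17.9%, 16.2% and 12.1% of all tested models. Deviations of same-numbered libraries correlated by 0.011 between weeks 2 and 4, -0.070 between weeks 2 and 8 and -0.15 between weeks 4 and 8. Whether such libraries share an origin was not tested.

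The members' share of reads at weeks 2, 4 and 8 was 0.235%, 0.782% and 2.73% of summed FPKM, 0.205%, 0.568% and 2.03% without the member with most reads, and 0.167%, 0.476% and 1.83% without shared-read members. Single libraries gave 0.241% to 0.255%, 0.682% to 0.686% and 2.32% to 2.40% in these weeks. The 15 members taken by the rule for named models had 45 fold changes, which kept their direction in all 711 alternatives run on them. The choice of members all but fixes this direction. Of these runs, some with 1 library left in a week, 9 lost the call and 11 gained one. Members named after their values were seen were not included. Members with fewer than 10 counts at week 2 limit how well the first step is known.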

Other observations

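Rescaling FPKM by TMM factors lost 26 members, among them 790670, 777548, 836141, 490434 and 284908, described above. It brought in 4 models, which were picked out after their values were seen. They had missed the first step of the rule narrowly on the deposited scale. Beside model 857780, named above, jgi|Obbri1|764718|estExt_Genewise1.C_3750003 had 12.7 and 10.3 FPKM in week 2, 33.7 and 19.2 in week 4, and 74.6 and 109 in week 8. Model jgi|Obbri1|786567|estExt_Genewise1Plus.C_3720003 had 1.38 and 0.76 FPKM in week 2, 5.52 and 2.55 in week 4, and 15.9 and 19.0 in week 8. Its name holds the scaffold number 372, as does that of the member jgi|Obbri1|786576|estExt_Genewise1Plus.C_3720012, which had 8.29 and 9.22, 23.6 and 19.9, and 44.9 and 50.1 FPKM. In each of these models the libraries of week 2 lay below those of week 4, and those of week 4 below those of week 8. The fourth, jgi|Obbri1|892050|estExt_Genemark1.C_3620001, is a shared-read model and had 24.9 and 19.99 FPKM at week 8.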
